A study of Rattus norvegicus with 29 samples.

Results

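The acute phase proteins studied here are 10 plasma proteins that the liver makes or that mark its inflammatory state: Hp, Hpx, Cp, Itih3, Itih4, Lbp, Crp, Orm1, Lcn2 and Il1rn. Their genes were chosen by name, as every array feature whose only gene symbol in the platform annotation is one of the 10 names. Each gene had 1 such feature, so 10 of the 14324 genes with a symbol of their own are described. The rats were male Sprague-Dawley animals of the Crl:CD stock, 6 to 7 weeks old at the start, gavaged once a day. The test compound was PMCol, that is 2,2,5,7,8-pentamethyl-6-chromanol, a vitamin E analogue without the long tail, and vehicle animals received the carrier alone, 1% methylcellulose in water. At day 8, after 7 doses, there were 6 animals given 2000 mg/kg and 6 given vehicle. At day 29, after 28 doses, there were 6 animals given vehicle, 6 given 200 mg/kg and 5 given 2000 mg/kg. RNA from the left liver lobe of each animal went onto 1 Affymetrix whole-transcript array, and the labels call the animals of a group biological replicates.

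The acute phase response is the change in liver protein output that follows injury, infection or inflammation. Interleukin-6 acts on hepatocytes through the transcription factor STAT3, interleukin-1 and TNF act through NF-kB and C/EBP factors, and glucocorticoids strengthen many of these responses. Positive acute phase proteins go up in such a response and negative ones, such as transthyretin, go down. Which protein dominates differs between species: Orm1 and A2m are strong reactants in the rat, whereas rat CRP is abundant in plasma without inflammation.

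All values are log2 signals relative to the median of the same feature over the 29 animals. They carry differences between animals but not how strongly a gene is expressed, so genes cannot be compared by level and the liver label could not be checked by how abundant hepatocyte markers were. A change is a difference of group means on the log2 scale ± its standard error (SE). Changes were tested with limma on all 29 animals, and an adjusted p (Benjamini-Hochberg over 27342 features) under 0.05 counts as passing. The medians of the 29 arrays lay between -0.023 and 0.029, and the number of animals limits the precision. The array of vehicle day 29 replicate 1 had the largest SD over its features, 0.287, and the lowest weight in the array-weighted fit, 0.28. Several overlaps between groups described below run through this animal. The stored values of 9 of the 10 genes had the rounding of signals of 8 or more before centring, and those of Lcn2 of 4 or more. In whole liver RNA, fewer cells of a type and less RNA per cell cannot be told apart.

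After 7 doses of 2000 mg/kg PMCol, 6 of the 10 genes were lower than in vehicle livers and 0 were higher: Itih3, Lbp, Itih4, Hp, Cp and Hpx. Of all features, 9.32% were called lower in this comparison and 9.32% higher. Among the 7991 features with the rounding of signals of 8 or more, 16.6% were lower at day 8 and 16.9% at day 29. In the same features, 19.8% were higher at day 8 and 23.8% at day 29. After 28 doses 7 of the 10 were lower, the same 6 and Il1rn, and 1 was higher, Lcn2. In that comparison 9.55% of all features were lower and 12.1% higher. The median change of the 10 genes was -0.23 at day 8 and -0.24 at day 29, against -0.005 and 0.002 over all features. Most of the falls were small on the log2 scale, and only that of Il1rn at day 29 exceeded 1. For scale, the median absolute change over all features was 0.075 at day 8 and 0.086 at day 29.

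**Figure D1:**
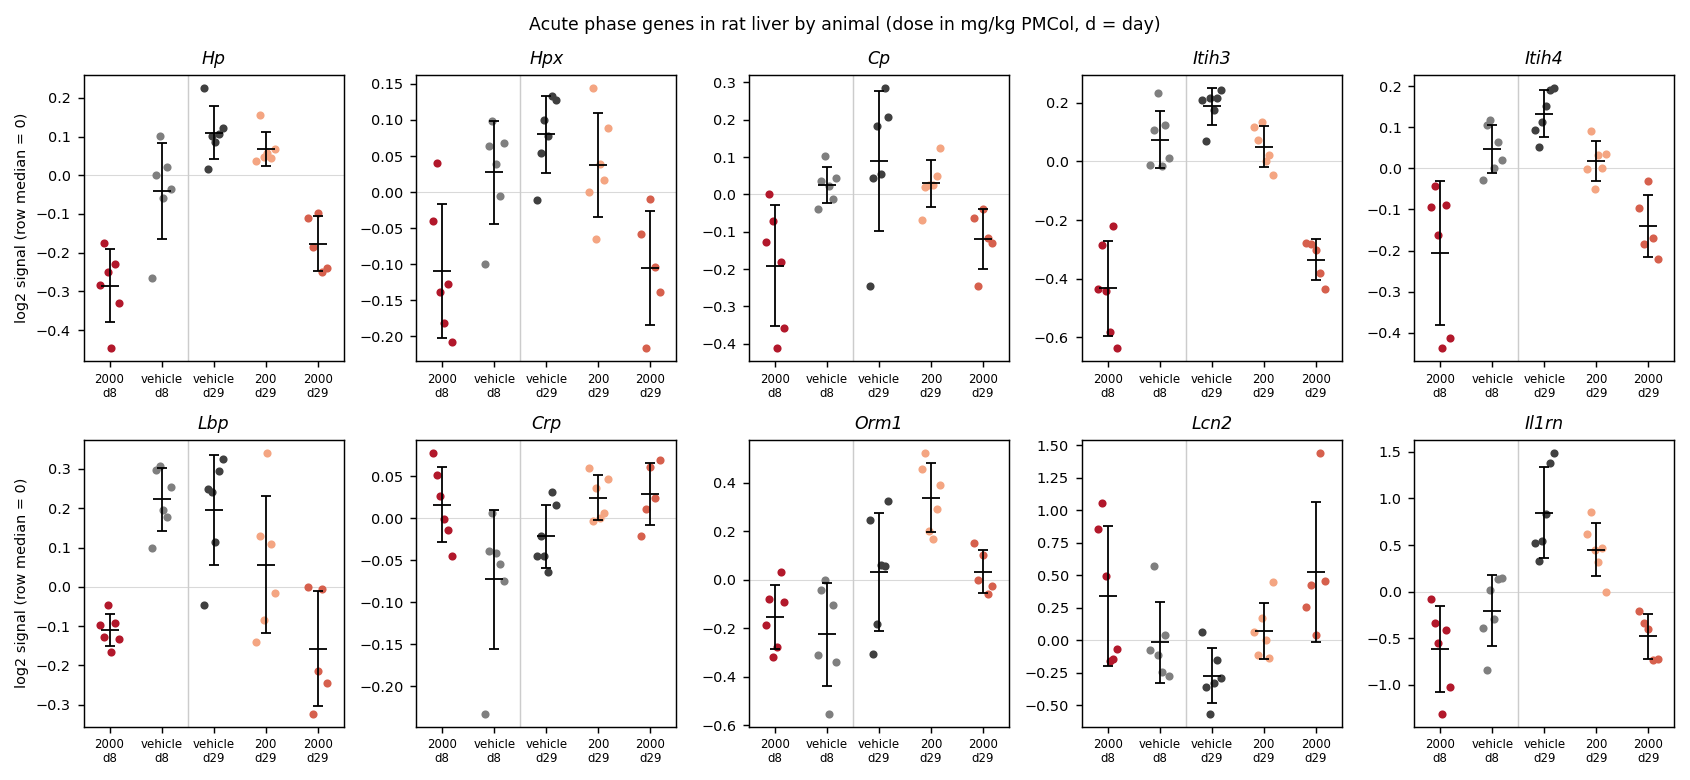
Log2 signal (vertical axis, 0 is the median over 29 animals) of the 10 acute phase genes in each animal, with the group mean and SD as bars, for 2000 mg/kg PMCol and vehicle at day 8 (left of the line) and vehicle, 200 and 2000 mg/kg at day 29. Itih3 in animals given 2000 mg/kg lay below every vehicle animal at both days, and Il1rn was highest in vehicle animals of day 29, with a group mean of 0.85.

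The carriers of haemoglobin, haem and copper were all lower at 2000 mg/kg. Hp (feature 10810923), haptoglobin, binds haemoglobin set free from red cells. Its lowest, median and highest values at day 8 were -0.45, -0.27 and -0.18 in 2000 mg/kg animals and -0.27, -0.02 and 0.10 in vehicle animals. The groups overlapped only through vehicle replicate 1, whose value lay inside the range of the dosed animals. The change was -0.25 ± 0.05 (adjusted p = 0.000656), a fold of 0.843. At day 29 the 5 animals given 2000 mg/kg had Hp values of -0.11, -0.19, -0.10, -0.25 and -0.24, against a lowest of 0.02, a median of 0.10 and a highest of 0.23 in vehicle animals. Every dosed animal lay below every vehicle animal, and the change was -0.29 ± 0.05 (adjusted p = 0.000171). Of all features, 4.99% had such a separation with the dosed animals lower.

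Hpx (feature 10724483), hemopexin, carries free haem to hepatocytes. At day 8 its lowest, median and highest values were -0.21, -0.13 and 0.04 in 2000 mg/kg animals and -0.10, 0.05 and 0.10 in vehicle animals, and the ranges overlapped. The change was -0.14 ± 0.05 (adjusted p = 0.0326). It no longer passed when any of vehicle replicates 2, 3, 4 and 6 or 2000 mg/kg replicates 3, 4, 5 and 6 was left out, with adjusted p up to 0.0907. On day 29 values were -0.06, -0.22, -0.01, -0.10 and -0.14 in the dosed animals, and vehicle animals had a lowest of -0.01, a median of 0.09 and a highest of 0.13. The change of -0.19 ± 0.05 (adjusted p = 0.00471) held without any single animal, and the ranges touched between dosed replicate 3 and vehicle replicate 1.

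Cp (feature 10814430), ceruloplasmin, is the copper-bearing ferroxidase of plasma. At day 8 its lowest, median and highest values were -0.41, -0.15 and 0 in 2000 mg/kg animals and -0.04, 0.03 and 0.10 in vehicle animals. Dosed replicates 4 and 6 stood lowest, at -0.41 and -0.36. The change was -0.22 ± 0.07 (adjusted p = 0.0268), and it did not pass without either of those animals or without vehicle replicate 3 (adjusted p up to 0.0889). After 28 doses the dosed animals had -0.06, -0.25, -0.04, -0.12 and -0.13, against -0.24, 0.12 and 0.29 as the lowest, median and highest vehicle values. Vehicle replicate 1 held that lowest value, and the other vehicle animals lay above all dosed animals. The change was -0.21 ± 0.07 (adjusted p = 0.0404), lost without vehicle replicate 3, 4, 5 or 6 or 2000 mg/kg replicate 2, 4 or 5 (adjusted p up to 0.114).

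Genes that deal with the cargo of these carriers were on a list of 16 measured partners and receptors of the 10 proteins. At day 8, 3 of the 16 were higher at 2000 mg/kg and 8 lower, and at day 29, 3 were higher and 6 lower. The shares over all features were 9.32% higher and 9.32% lower at day 8, and 12.1% and 9.55% at day 29. For features with the rounding of 8 or more they were 19.8% and 16.6% at day 8, and 23.8% and 16.9% at day 29. Cd163, the haptoglobin receptor of macrophages, fell by 0.90 ± 0.27 at day 8 (adjusted p = 0.0168), and without 2000 mg/kg replicate 4 its adjusted p was 0.0502. It is also on the list of macrophage markers given further on. Hmox1, heme oxygenase, which breaks haem down, rose by 1.14 ± 0.18 at day 8 and by 1.29 ± 0.19 at day 29. Tfrc, the transferrin receptor, was higher by 0.85 ± 0.17 at day 8. Blvrb, a biliverdin reductase, and Slc40a1, the iron exporter ferroportin, were higher by 0.83 ± 0.17 and 0.58 ± 0.16 at day 29.

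Itih3 and Itih4 are heavy chain genes of the inter-alpha-trypsin inhibitor family of plasma proteins, some of which bind hyaluronan in the extracellular matrix. In RefSeq's GRCr8 annotation Itih4, Itih3 and Itih1 are consecutive coding genes on chromosome 16. The promoters of the pair in that assembly, 250 bases before the transcription start and 50 after it, are shown because both genes fell at 2000 mg/kg against vehicle at both days. Capitals mark matches to TTCNNNGAA, a STAT3 motif, or TTNNGNAA, a C/EBP motif. Both were searched on both strands, as was an NF-kB motif.
Itih3, chr16:6123325-6123624, minus strand: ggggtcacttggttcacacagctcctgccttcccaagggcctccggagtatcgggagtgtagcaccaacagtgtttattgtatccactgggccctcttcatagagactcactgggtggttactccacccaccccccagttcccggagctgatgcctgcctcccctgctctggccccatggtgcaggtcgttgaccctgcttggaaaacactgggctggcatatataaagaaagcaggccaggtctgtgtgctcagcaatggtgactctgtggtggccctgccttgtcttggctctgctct
Itih4, chr16:6086735-6087034, plus strand: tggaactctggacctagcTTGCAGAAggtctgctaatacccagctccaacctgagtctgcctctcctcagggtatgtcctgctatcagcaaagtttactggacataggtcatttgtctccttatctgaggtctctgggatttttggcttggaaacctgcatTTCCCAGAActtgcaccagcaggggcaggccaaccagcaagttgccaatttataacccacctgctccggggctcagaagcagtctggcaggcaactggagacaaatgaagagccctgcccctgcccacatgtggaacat
The Itih4 window held the STAT3 letters TTCCCAGAA, which read the same motif on both strands, with their first base at -89 from the start, and C/EBP letters at -232. The Itih3 window held none of the 3 motifs. Promoters from the same RefSeq table were found for 8 of the 10 genes, all but Hp and Lbp. Of the 33469 rat promoters in it, 8.87% held the STAT3 letters, 41.3% the C/EBP letters and 5.0% the NF-kB letters. Among the 8 promoters, 1 held the STAT3 letters, 7 the C/EBP letters and 1 the NF-kB letters. A match describes the sequence and is not a shown binding site.

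Itih3 (feature 10789952) fell at both days. At day 8 its lowest, median and highest values were -0.64, -0.44 and -0.22 in 2000 mg/kg animals and -0.02, 0.06 and 0.23 in vehicle animals. At day 29 the dosed animals had -0.28, -0.28, -0.30, -0.38 and -0.43, and vehicle animals had a lowest of 0.07, a median of 0.21 and a highest of 0.24. The groups did not overlap at either day. The changes were -0.51 ± 0.06 at day 8 (adjusted p = 2.1e-07) and -0.52 ± 0.06 at day 29 (adjusted p = 2.58e-07), folds of 0.703 and 0.695.

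Itih4 (feature 10786537) changed less. Its lowest, median and highest values at day 8 were -0.44, -0.13 and -0.04 in 2000 mg/kg animals and -0.03, 0.04 and 0.12 in vehicle animals. Dosed replicates 4 and 6, at -0.44 and -0.41, lay well below the other dosed animals. After 28 doses the dosed animals had -0.10, -0.18, -0.03, -0.17 and -0.22, against a lowest of 0.05, a median of 0.13 and a highest of 0.20 in vehicle animals. No dosed animal overlapped a vehicle animal at either day, and the changes were -0.25 ± 0.06 (adjusted p = 0.00134) and -0.27 ± 0.06 (adjusted p = 0.000872). Separation with the dosed animals lower was seen for 5.19% of all features at day 8. The neighbour Itih1, a further heavy chain gene, changed by -0.76 ± 0.07 at day 8 and -0.74 ± 0.07 at day 29. The differences in size between the 3 genes were not tested.

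Lbp (feature 10841693), the lipopolysaccharide-binding protein, hands bacterial lipopolysaccharide to CD14 and so to the receptor complex of TLR4 and MD-2. At day 8 its lowest, median and highest values were -0.17, -0.11 and -0.05 in 2000 mg/kg animals and 0.10, 0.23 and 0.31 in vehicle animals, with no overlap. The dosed animals spread little, with a mean of -0.11 ± 0.04 (SD, n = 6) beside 0.22 ± 0.08 (SD, n = 6) in vehicle animals. The change was -0.33 ± 0.07 (adjusted p = 0.000959). After 28 doses Lbp values were 0, -0.32, -0.21, -0.0042 and -0.25 in the dosed animals, and vehicle animals had a lowest of -0.05, a median of 0.24 and a highest of 0.33. Vehicle replicate 1 held that lowest value and was the one vehicle animal inside the range of the dosed ones. The change was -0.35 ± 0.07 (adjusted p = 0.000725).

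The receptors of the same route did not all follow Lbp. Cd14 was higher at 2000 mg/kg by 0.54 ± 0.13 at day 8 (adjusted p = 0.00379) and by 0.76 ± 0.14 at day 29 (adjusted p = 0.000163). Tlr4 fell by 0.50 ± 0.09 at day 8 (adjusted p = 0.000209). Ly96, which encodes MD-2, was higher by 0.50 ± 0.15 at day 29 (adjusted p = 0.0134).

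Crp (feature 10765801), C-reactive protein, is a pentraxin that binds phosphocholine on damaged cells and bacteria. At day 8 its lowest, median and highest values were -0.04, 0.01 and 0.08 in 2000 mg/kg animals and -0.23, -0.05 and 0.01 in vehicle animals. The ranges overlapped and vehicle replicate 1 stood apart at -0.23. The change of 0.09 ± 0.03 had an adjusted p of 0.0678, with a 95% interval from 0.02 to 0.16. It passed without vehicle replicate 3 (adjusted p = 0.0362) or 2000 mg/kg replicate 6 (adjusted p = 0.0494), after quantile normalization (adjusted p = 0.0439) and with each array centred (adjusted p = 0.0496). After 28 doses the change was 0.05 ± 0.04 (adjusted p = 0.358). The neighbouring coding gene on chromosome 13, Apcs, encodes serum amyloid P, the other short pentraxin, and fell by 0.48 ± 0.08 at day 29 (adjusted p = 4.66e-05).

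Orm1 (feature 10869476), alpha-1-acid glycoprotein, binds many drugs in plasma and is a classical glucocorticoid and cytokine target in the rat. Its promoter, shown here, carries 2 matches to the C/EBP letters, at -123 and -111, marked in capitals. The promoters of Crp and Hpx also held 2 and that of Il1rn 3.
Orm1, chr5:81788259-81788558, plus strand: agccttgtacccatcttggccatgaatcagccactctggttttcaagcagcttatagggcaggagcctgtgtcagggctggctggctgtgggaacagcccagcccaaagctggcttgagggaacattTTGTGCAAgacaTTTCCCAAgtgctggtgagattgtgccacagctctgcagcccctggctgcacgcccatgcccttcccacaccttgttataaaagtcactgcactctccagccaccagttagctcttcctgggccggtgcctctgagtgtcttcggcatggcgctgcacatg
At day 8 the lowest, median and highest Orm1 values were -0.32, -0.14 and 0.03 in 2000 mg/kg animals and -0.55, -0.21 and 0.00064 in vehicle animals. The ranges overlapped over most of their length, and the change was 0.07 ± 0.10 (adjusted p = 0.699). At day 29 the values were -0.31, 0.06 and 0.33 in vehicle animals and 0.17, 0.34 and 0.52 in 200 mg/kg animals, and 0.15, 0, 0.10, -0.06 and -0.03 in the 5 animals given 2000 mg/kg. Every animal given 2000 mg/kg lay below every animal given 200 mg/kg and inside the vehicle range. The change at 2000 mg/kg against vehicle was 0.00023 ± 0.10 (adjusted p = 0.999), and its sign was not stable between settings. At 200 mg/kg it was 0.31 ± 0.10 (adjusted p = 0.0927), with a 95% interval from 0.11 to 0.50. That change passed after quantile normalization (adjusted p = 0.047), among features with the rounding of 8 or more (adjusted p = 0.0464) and without vehicle replicate 6 (adjusted p = 0.0447).

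Lcn2 (feature 10844331), lipocalin 2, withholds iron from bacteria by binding their siderophores, and is made by stressed hepatocytes and stored by neutrophils. At day 8 its lowest, median and highest values were -0.16, 0.21 and 1.06 in 2000 mg/kg animals and -0.27, -0.10 and 0.57 in vehicle animals. Dosed replicates 1 and 2, at 0.86 and 1.06, lay above the vehicle range, whose highest value was that of vehicle replicate 2. The other 4 dosed animals, at 0.49, -0.16, -0.14 and -0.07, lay within it. The change was 0.36 ± 0.21 (adjusted p = 0.274). At day 29 the dosed animals had 0.26, 0.42, 0.04, 1.44 and 0.45, against a lowest of -0.57, a median of -0.31 and a highest of 0.06 in vehicle animals. Only dosed replicate 3 reached down to a vehicle value, that of vehicle replicate 1. The change was 0.80 ± 0.22 (adjusted p = 0.00853), a fold of 1.74, and 0.57 (adjusted p = 0.0477) without dosed replicate 4, the highest animal.

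The markers of neutrophils, which also hold lipocalin 2, were given beside this rise as a list of 11 genes. In limma 0 of the 11 passed in either direction at day 8 or at day 29, where 18.6% and 21.6% of all features did. Of the 11, 0 had an unadjusted p under 0.05. At day 29 their changes lay between -0.11 and 0.10, with S100a8 at -0.01 ± 0.04 and Mpo at -0.02 ± 0.06. The list mean per animal ranged from -0.06 to 0.04 in 2000 mg/kg animals and from -0.05 to 0.03 in vehicle animals of day 29. Centred values do not tell whether these markers were bright enough in liver to show a change. The part of neutrophils in the Lcn2 rise was not tested.

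Il1rn (feature 10834109), the interleukin-1 receptor antagonist, blocks interleukin-1 at its receptor and is released by hepatocytes and macrophages. Its promoter is shown because it held the one NF-kB match among the 8 promoters, GGGTTTTTCC with its first base at -129. It also held C/EBP letters at -239, -143 and -142, of which the last 2 overlap.
Il1rn, chr3:27520072-27520371, plus strand: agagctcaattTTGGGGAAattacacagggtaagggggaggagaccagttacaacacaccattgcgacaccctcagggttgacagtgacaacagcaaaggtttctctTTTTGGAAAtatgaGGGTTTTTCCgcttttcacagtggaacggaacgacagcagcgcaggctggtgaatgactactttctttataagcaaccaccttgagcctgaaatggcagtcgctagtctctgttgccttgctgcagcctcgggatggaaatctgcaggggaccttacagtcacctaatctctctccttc
At day 8 its lowest, median and highest values were -1.31, -0.48 and -0.07 in 2000 mg/kg animals and -0.84, -0.14 and 0.14 in vehicle animals. The groups overlapped widely and the change was -0.41 ± 0.21 (adjusted p = 0.194). At day 29 the dosed animals had -0.21, -0.34, -0.40, -0.73 and -0.72, and vehicle animals a lowest of 0.32, a median of 0.69 and a highest of 1.49. No dosed animal reached the lowest vehicle animal. The change was -1.33 ± 0.22 (adjusted p = 4.49e-05), a fold of 0.398, and it ran from -1.43 to -1.20 when single animals were left out.

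The vehicle animals of the 2 days differed as well. Those of day 29 were also older and had received 28 vehicle doses rather than 7, and day, age and dose number cannot be told apart. Il1rn was higher in vehicle animals of day 29 than of day 8 by 1.05 ± 0.21 (adjusted p = 0.00959), with no overlap, a separation that 0.541% of features showed in this direction. The adjusted p was 0.0542 when only those animals entered the fit. The test of the difference between days, the change at day 29 minus that at day 8, gave -0.92 ± 0.30 with an unadjusted p of 0.00548 and an adjusted p of 0.149. The mean of Il1rn at 2000 mg/kg was -0.48 ± 0.24 (SD, n = 5) at day 29 and -0.62 ± 0.46 (SD, n = 6) at day 8.

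**Figure D2:**
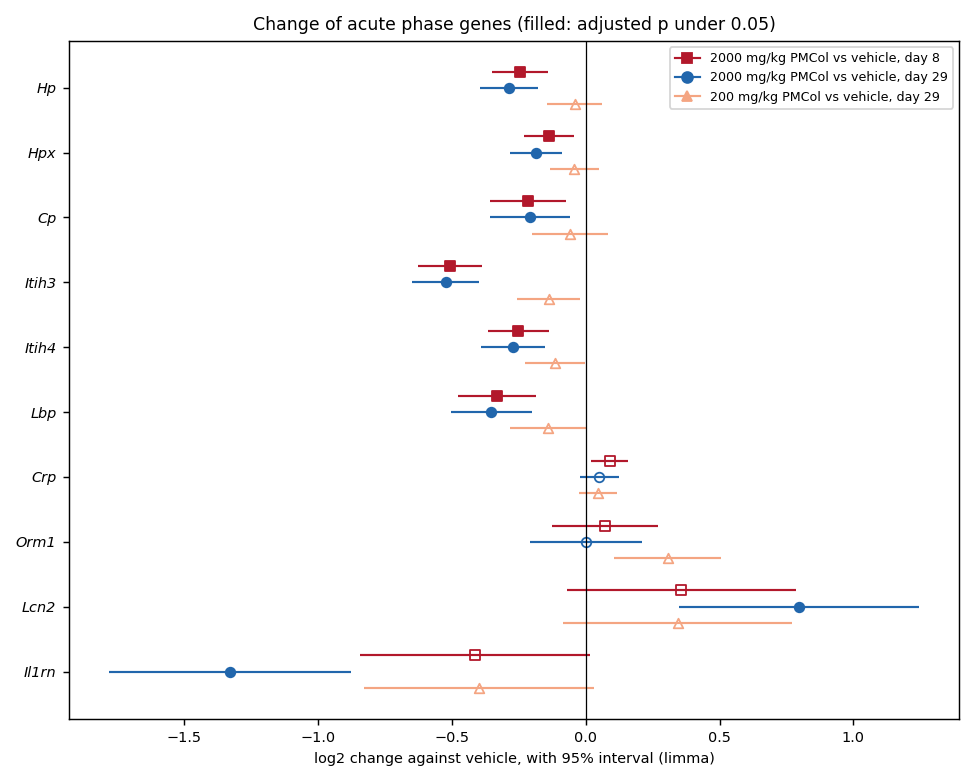
Log2 change against vehicle (horizontal axis) of the 10 genes with its 95% interval from limma, for 2000 mg/kg at day 8 (squares), 2000 mg/kg at day 29 (circles) and 200 mg/kg at day 29 (triangles), filled where the adjusted p is under 0.05. The 2 changes at 2000 mg/kg lie close together for Itih3, at -0.51 and -0.52, and apart for Il1rn, at -0.41 and -1.33.

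Across the 5 group means Il1rn had the widest range of the 10 genes, 1.47, followed by Lcn2 with 0.80, Itih3 with 0.62 and Orm1 with 0.56. Crp had the narrowest, 0.10. The 5 genes whose values were most like those of Il1rn were P2rx7, Tsc22d3, Nfkbiz, Car8 and Aspg, with root mean square differences over the 29 animals of 0.376, 0.380, 0.381, 0.400 and 0.402. P2rx7 encodes an ATP-gated channel of immune cells, Tsc22d3 the glucocorticoid-induced protein GILZ, Nfkbiz a nuclear IkB protein and Aspg an asparaginase. As these genes were picked for their likeness over all animals, their values are a description. At day 29 Nfkbiz averaged 0.55 in vehicle animals, 0.24 at 200 mg/kg and -0.96 at 2000 mg/kg, and vehicle animals of day 8 averaged -0.19. Tsc22d3 averaged 0.70 in vehicle animals of day 29, 0.50 at 200 mg/kg and -0.71 at 2000 mg/kg, and 0.05 in vehicle animals of day 8.

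**Figure D3:**
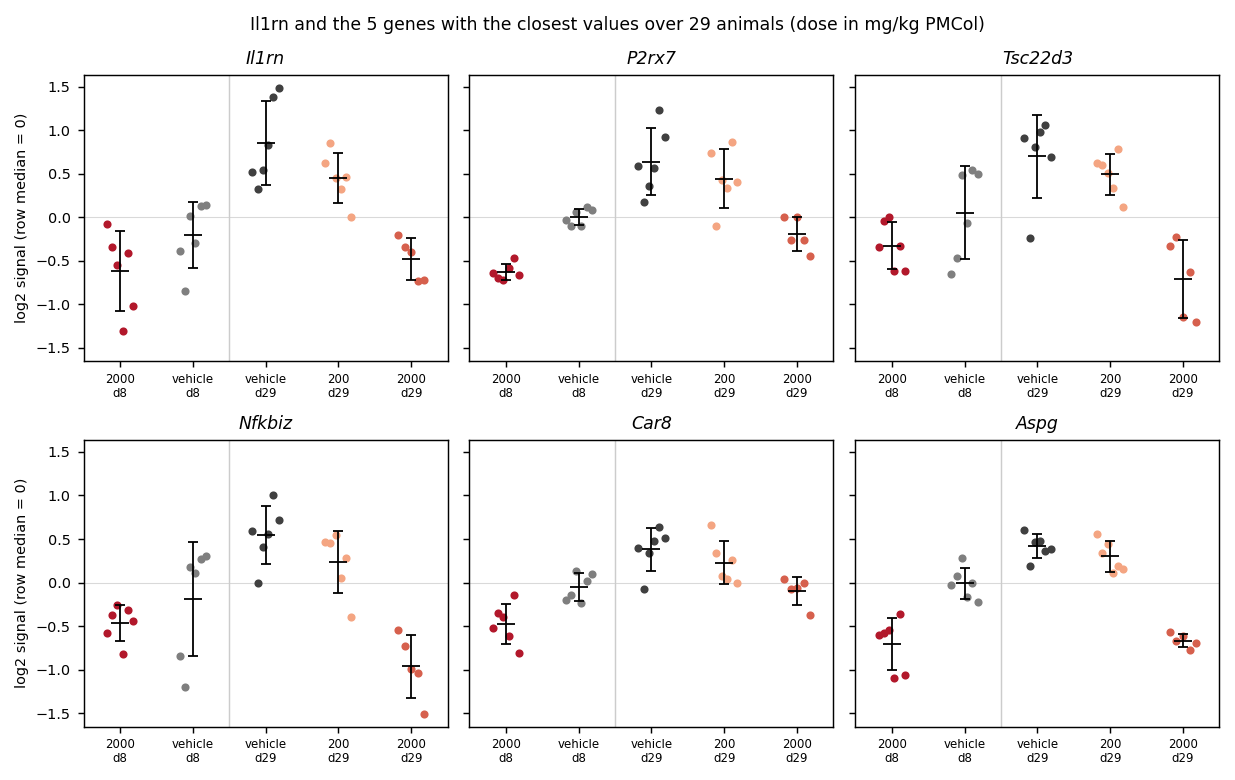
Log2 signal (vertical axis) of Il1rn and of P2rx7, Tsc22d3, Nfkbiz, Car8 and Aspg in each of 29 animals, with group mean and SD as bars, at day 8 left of the line and at day 29 right of it. In vehicle animals of day 29 the means were 0.85 for Il1rn, 0.70 for Tsc22d3 and 0.55 for Nfkbiz.

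At 200 mg/kg for 28 days 0 of the 10 genes passed against vehicle in limma, where 2.78% of all features did, and 3 had an unadjusted p under 0.05. These were Orm1, described above, Itih3 at -0.14 ± 0.06 (adjusted p = 0.251) and Itih4 at -0.11 ± 0.06 (adjusted p = 0.357). Without vehicle replicate 6, 1 gene passed, Orm1. The median change of the 10 was -0.05, against 0.003 over all features. The lowest, median and highest values at 200 mg/kg were -0.05, 0.05 and 0.13 for Itih3 and 0, 0.46 and 0.85 for Il1rn, whose change was -0.40 ± 0.21 (adjusted p = 0.416). For Hp the change was -0.04 ± 0.05, with a 95% interval from -0.14 to 0.06.

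Between the doses at day 29, 3 of the 10 genes were lower at 2000 than at 200 mg/kg and 0 were higher, where 3.84% of all features were lower and 6.05% higher. The count past the threshold was 7 after quantile normalization, 6 among features with the rounding of 8 or more, and 5 among features with 1 symbol, with array weights or without 200 mg/kg replicate 3. The change was -0.38 ± 0.06 for Itih3 (adjusted p = 8.46e-05), -0.25 ± 0.05 for Hp (adjusted p = 0.0025) and -0.93 ± 0.22 for Il1rn (adjusted p = 0.00571). In these 3 genes and in Orm1 no animal at 2000 mg/kg overlapped one at 200 mg/kg, a separation that 2.5% of features showed with the higher dose lower. Orm1 differed by -0.31 ± 0.10 (adjusted p = 0.0552) and passed without 200 mg/kg replicate 4 (adjusted p = 0.0486). Hpx, at -0.14 ± 0.05 (adjusted p = 0.0535), passed without replicate 3 of either dose. Lbp, at -0.21 ± 0.07 (adjusted p = 0.0664), passed without 200 mg/kg replicate 1 or 3 or 2000 mg/kg replicate 1 or 4. This comparison shares its animals with the 2 comparisons against vehicle of day 29.

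The change at 2000 mg/kg differed between days for 0 of the 10 genes in limma, where 0.775% of all features passed, and 1 gene, Il1rn, had an unadjusted p under 0.05. For Itih3 the difference, day 29 minus day 8, was -0.02 ± 0.08 with a 95% interval from -0.19 to 0.16. For Lcn2 it was 0.44 ± 0.30 (adjusted p = 0.532), with an interval from -0.18 to 1.06. Between vehicle animals of day 29 and day 8, Il1rn was the 1 gene of 10 that was higher, where 0.962% of all features were higher and 1.77% lower. Hp, at 0.15 ± 0.05 (adjusted p = 0.0959), and Orm1, at 0.26 ± 0.10 (adjusted p = 0.141), passed only without vehicle day 29 replicate 2, with adjusted p of 0.0459 and 0.0311. Without that animal 2141 of the 27342 features passed in either direction, against 746 with all animals.

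Single animals moved several of the genes together. In the 2000 mg/kg group of day 8, replicate 4 was the lowest animal for 6 of the 10 genes and among the lowest 2 for 9, and replicate 6 was among the lowest 2 for 8. In the vehicle groups, replicate 1 of day 8 was lowest for 6 genes and replicate 2 of day 29 for 5. The mean of the 10 genes per animal had a lowest, median and highest of -0.40, -0.15 and 0.01 in 2000 mg/kg animals of day 8 and -0.14, 0.004 and 0.09 in vehicle animals.

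Other positive acute phase proteins were on a list of 19 measured genes. At 2000 mg/kg 2 were higher and 12 lower at day 8, and 1 was higher and 10 lower at day 29. Those were 10.5% higher and 63.2% lower at day 8, beside 9.32% and 9.32% of all features. At day 29 they were 5.3% and 52.6%, beside 12.1% and 9.55%. Among features with the rounding of 8 or more, 19.8% were higher and 16.6% lower at day 8. The shares of those features at day 29 were 23.8% and 16.9%. A2m, alpha-2-macroglobulin, the proteinase trap that rises strongly in inflamed rats, changed by -1.93 ± 0.24 at day 8 and -0.96 ± 0.25 at day 29. Fn1, fibronectin, changed by -1.01 ± 0.07 and -0.79 ± 0.07, and Fga, the fibrinogen alpha chain, fell by 0.48 ± 0.07 at day 8. Cd14 was also the 1 gene of this list that passed at 200 mg/kg, where it was higher by 0.79 ± 0.13 (adjusted p = 0.000744). The median change of the list at 2000 mg/kg was -0.21 at day 8 and -0.19 at day 29.

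Some negative acute phase proteins, which go down in inflammation, fell as well. Of 9 measured genes 5 were lower and 0 higher at 2000 mg/kg at day 8, and likewise 5 and 0 at day 29. That was 55.6% lower at each day, beside 9.32% of all features at day 8 and 9.55% at day 29. Among features with the rounding of 8 or more, 16.6% were lower at day 8 and 16.9% at day 29. Serpina6, the corticosteroid-binding globulin, changed by -0.58 ± 0.10 at day 8 and -0.54 ± 0.11 at day 29. F12, coagulation factor XII, changed by -0.32 ± 0.06 and -0.33 ± 0.06, and Ahsg, fetuin-A, by -0.27 ± 0.04 and -0.18 ± 0.04. Ttr, transthyretin, fell by 0.22 ± 0.04 at day 8. At 200 mg/kg 0 of the 9 passed in limma, and 3 had an unadjusted p under 0.05.

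**Figure D4:**
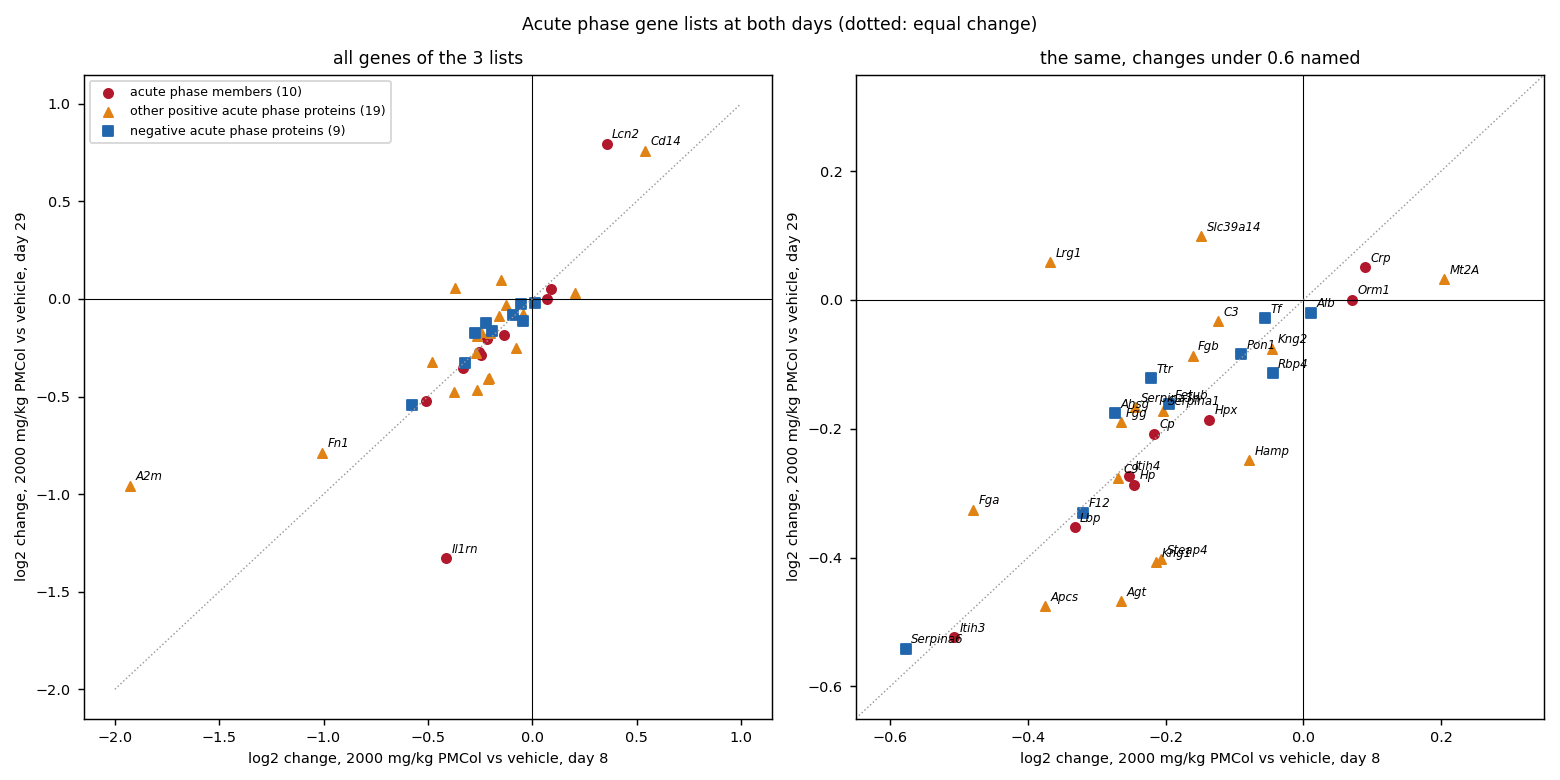
Log2 change at 2000 mg/kg PMCol against vehicle at day 8 (horizontal axis) and day 29 (vertical axis) of the 10 acute phase genes (circles), 19 other positive (triangles) and 9 negative acute phase proteins (squares). The left panel shows all and the right panel those between -0.65 and 0.35, and the dotted line marks equal change. A2m, at -1.93 and -0.96, and Il1rn, at -0.41 and -1.33, lie farthest from that line.

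Among genes of the signals that drive the response, calls went in both directions. Of 17 measured genes of IL-6 and STAT3 signalling 1 was higher and 6 lower at 2000 mg/kg at day 8, and 3 were higher and 4 lower at day 29, of which 4 passed without 2000 mg/kg replicate 2. Those were 5.9% higher and 35.3% lower at day 8, beside 9.32% and 9.32% of all features. At day 29 they were 17.6% and 23.5%, beside 12.1% and 9.55%. The day 29 counts lay near the shares among features with the rounding of 8 or more, 23.8% higher and 16.9% lower. Il6r, the interleukin-6 receptor, fell by 0.46 ± 0.11 and Junb, an immediate early STAT3 target, by 1.00 ± 0.23 at day 8. The receptor gene Osmr was higher by 0.83 ± 0.28 at day 8 (adjusted p = 0.0359) and by 0.89 ± 0.29 at day 29 (adjusted p = 0.0289). With only the animals compared in the fit, Osmr did not pass at day 8 (adjusted p = 0.0605) or day 29 (adjusted p = 0.0539). It was also lost without several single animals at each day. At day 29 Socs3, the feedback inhibitor of STAT3 signalling, was higher by 0.73 ± 0.16 and Fgl1, a fibrinogen-like hepatokine, fell by 0.85 ± 0.13. Il11ra1, the interleukin-11 receptor, changed by -0.42 ± 0.06 at day 8 and -0.30 ± 0.06 at day 29.

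Of 30 measured genes of IL-1, TNF and NF-kB signalling, 4 were higher and 7 lower at day 8, and 3 were higher and 5 lower at day 29. Those were 13.3% higher and 23.3% lower at day 8, beside 9.32% and 9.32% of all features. Among features with the rounding of 8 or more, 19.8% were higher and 16.6% lower at day 8. The day 29 counts lay near the shares over features, 12.1% higher and 9.55% lower over all, or 16.9% lower among those with the rounding of 8 or more. Irak1, a kinase of the interleukin-1 receptor, was higher by 0.59 ± 0.06 at day 8 and 0.82 ± 0.06 at day 29, and by 0.33 ± 0.06 at 200 mg/kg (adjusted p = 0.000691). Il1b fell by 0.59 ± 0.13 at day 8. Nfkbia, an NF-kB inhibitor gene, and Nfkbiz, the gene of a nuclear IkB protein, changed by -1.32 ± 0.23 and -1.51 ± 0.23 at day 29. The adjusted p was 8.34e-05 for Nfkbia and 1.93e-05 for Nfkbiz. At day 8 Nfkbiz changed by -0.27 ± 0.22 (adjusted p = 0.469).

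Of 12 genes of the glucocorticoid receptor and its targets, 8 were lower and 1 higher at 2000 mg/kg at day 29. Of all features, 9.55% were lower and 12.1% higher. Tsc22d3 changed by -1.41 ± 0.23, Dusp1, a MAP kinase phosphatase, by -1.39 ± 0.21 and Sgk1, a serum and glucocorticoid regulated kinase, by -0.93 ± 0.20. Fkbp5, a co-chaperone of the receptor, was higher by 1.33 ± 0.30. At day 8, where 9.32% of all features were lower, 4 of the 12 were lower and 0 higher, with Sgk1 at -1.14 ± 0.19. That count was 1 without vehicle replicate 3, and 2 without vehicle replicate 5 or 6 or 2000 mg/kg replicate 3, 4 or 6. Of 10 hepatocyte transcription factors 5 were lower at day 8 and 3 at day 29. Onecut1, hepatocyte nuclear factor 6, changed by -1.44 ± 0.30 at day 8 and -2.19 ± 0.32 at day 29, and Foxa1 by -0.78 ± 0.10 and -0.59 ± 0.11.

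At 200 mg/kg, 10 of the 172 measured genes of the 14 further lists passed against vehicle, 3 higher and 7 lower, a share of 5.81% beside 2.78% of all features. Besides Cd14 and Irak1, the third higher gene was Fkbp5, at 1.5 ± 0.29 (adjusted p = 0.00331). Among the lower genes were Onecut1 at -1.35 ± 0.30, Lox, a collagen cross-linking enzyme on the stellate cell list, at -1.45 ± 0.29, and Pdgfrb, of the same list, at -0.52 ± 0.09. The others were Itih1 at -0.28 ± 0.07 (adjusted p = 0.0209), the endocytic receptor gene Lrp2 at -0.30 ± 0.06, Asgr1 at -0.32 ± 0.07 and the TNF receptor gene Tnfrsf1b at -0.25 ± 0.07 (adjusted p = 0.0322). With only the animals compared in the fit, Fkbp5, Onecut1, Lox, Lrp2, Asgr1 and Tnfrsf1b did not pass, with adjusted p between 0.0546 and 0.0924. Itih1 was lost without vehicle replicate 5 or 200 mg/kg replicate 6, Asgr1 without 200 mg/kg replicate 6, and Tnfrsf1b in 8 of the 12 fits without 1 animal.

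Markers of the liver's cells also differed between the groups, and their part in the changes above was not tested. Of 7 measured hepatocyte markers 4 were lower and 0 higher at 2000 mg/kg at day 8, and 3 lower and 0 higher at day 29. Of all features, 9.32% were lower at day 8 and 9.55% at day 29. Asgr1, a subunit of the asialoglycoprotein receptor, changed by -0.49 ± 0.07 at day 8 and -0.60 ± 0.08 at day 29, and Cps1, the first enzyme of the urea cycle, by -0.29 ± 0.06 and -0.39 ± 0.06. The mean of the 7 per animal ran from -0.27 to -0.06 in 2000 mg/kg animals and from -0.11 to 0.11 in vehicle animals of day 8. At day 29 it ran from -0.17 to -0.09 at 2000 mg/kg and from 0.08 to 0.15 in vehicle animals, with no overlap.

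Macrophages are a source of Il1rn and carry the haptoglobin receptor. Of 14 macrophage markers 12 were lower and 0 higher at 2000 mg/kg at day 8, among them Clec4f, a lectin of Kupffer cells, at -1.16 ± 0.24 and C1qb at -1.10 ± 0.25. Of all features, 9.32% were lower in that comparison. At day 29 0 of the 14 passed in limma at either dose, and 0 had an unadjusted p under 0.05. The list mean per animal ran from -0.60 to 0.09 in 2000 mg/kg animals and from 0.32 to 1.10 in vehicle animals of day 8. At day 29 it ran from -0.45 to 0.71 in vehicle animals, from -0.81 to 0.22 at 200 mg/kg and from -0.73 to 0.44 at 2000 mg/kg. Between vehicle animals of day 29 and day 8, where 1.77% of all features were lower and 0.962% higher, 11 of the 14 macrophage markers were lower and 0 higher. That count was 4 without vehicle day 8 replicate 2, 4 or 6 or day 29 replicate 5 or 6, 5 without day 29 replicate 1 or 3, and 6 without day 29 replicate 4.

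The other marker lists moved as follows. For scale, 9.32% of all features were lower and 9.32% higher at 2000 mg/kg at day 8, and 9.55% and 12.1% at day 29. Of 9 stellate cell markers 1 was higher and 4 lower at 2000 mg/kg at day 8 and 8 were lower at day 29, with Pdgfrb at -0.57 ± 0.09 and -0.97 ± 0.10. Of 13 markers of T, B and NK cells 5 were lower at day 8, or 3 without vehicle replicate 3 or 2000 mg/kg replicate 4, and 0 passed at day 29, where 1 did without vehicle replicate 1. Of 3 measured endothelial markers 2 were lower at day 8, with Tek at -0.42 ± 0.10, and 1 was without vehicle replicate 2, 4 or 6 or 2000 mg/kg replicate 5. Of 6 erythrocyte markers 2 were lower at day 8, 0 without vehicle replicate 6 or 2000 mg/kg replicate 1 or 3, and 1 without vehicle replicate 2 or 5 or 2000 mg/kg replicate 2 or 6.

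**Figure D5:**
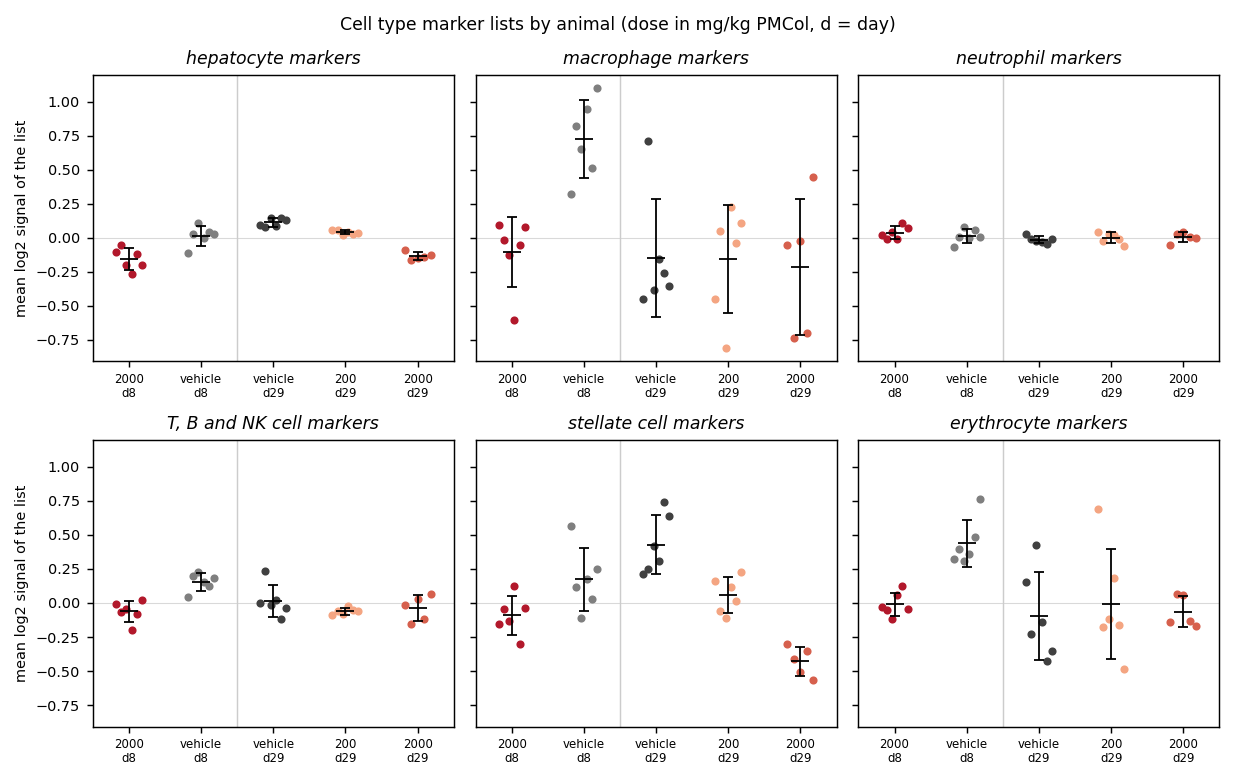
Mean log2 signal (vertical axis) of 6 marker lists in each animal, with the group mean and SD as bars, for 2000 mg/kg PMCol and vehicle at day 8 (left of the line) and vehicle, 200 and 2000 mg/kg at day 29. Macrophage markers stood highest in vehicle animals of day 8, from 0.32 to 1.10. Group means of the neutrophil markers, whose features are each centred on 0, lay between -0.02 and 0.04.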

How the data were processed

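Per the labels' protocols, liver RNA of each of 29 rats in 5 groups was labelled and put on its own Affymetrix whole-transcript array. What the authors deposited is a single table of log2 values with 27342 features, each centred so that its median over the arrays is 0. PLIER and MAS5 are named, without roles, in the submitters' processing notes. How arrays were normalized, how features were centred and whether an offset was added before the log is not stated in the sources used here, and an offset would make changes of dim genes too small. The platform annotation gave 1 symbol for 15097 features, several for 323 and none for 11922.

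The deposited log2 values were fitted with limma 3.58.1 in R 4.3.3, with 5 groups, 29 animals and 6 comparisons, and p-values, two-sided, were adjusted over all features within a comparison. The 10 genes, 14 further gene lists and the rules were chosen with earlier results of these data known. Named list genes are up to 4 past the threshold with the largest change in a comparison with vehicle, and genes most like Il1rn those with the smallest root mean square difference. Values named outside these rules (S100a8 and Mpo) were chosen after they were seen. Alternatives were quantile normalization, centred arrays, features with 1 symbol or with the rounding of 8 or more, only the animals compared, robust and array-weighted fits, a replicate block, and leaving out animals. Replicate numbers did not pair animals: 12 of 56 same-number pairs correlated over 0.1. Promoters were read from RefSeq GRCr8 with pandas 2.3.3, and plots drawn with matplotlib 3.10.9. No slide or scan date was used, and batch effects were not tested.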

Additional observations from a re-analysis of the deposited data

Results flagged for a closer look

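In 50 sets of values, 1 for each of the 10 genes in each of the 5 groups, 3 had an animal far from the rest of its group, and chance marks about 1 in 20 such sets. Hp was 0.15 in replicate 2 of 200 mg/kg at day 29, where the nearest animal had 0.07. Crp was -0.23 in replicate 1 of vehicle at day 8, where the nearest had -0.07. Lcn2 was 0.57 in replicate 2 of vehicle at day 8, where the nearest had 0.04. Their part in the changes was not tested beyond leaving out each animal.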

How the results depend on the processing

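Of 1324 values of the 10 genes under the alternatives, 1233 kept their direction and their side of the threshold, 22 lost a call, 30 gained one and 39 changed sign. The sign changes were all of values that did not pass. Orm1 at 2000 mg/kg and day 29 was -0.00012 with centred arrays, -0.0073 with array weights, -0.031 without vehicle day 29 replicates 1 and 2, and -0.0677 to 0.0588 without single animals. Crp between doses was -8.7e-05 after quantile normalization and -0.0056 to 0.017 without single animals. The difference between days was -0.019, -0.042 and -0.084 for Cp under quantile normalization, array weights and without both vehicle replicates, and 0.00795 for Lbp after quantile normalization. Without single animals it was -0.057 to 0.049 for Cp, -0.069 to 0.0204 for Lbp, -0.073 to 0.0044 for Hp, -0.057 to 0.026 for Itih3 and -0.066 to 0.013 for Itih4. Lbp between vehicle days was 0.011 with array weights, 0.021 without both replicates and -0.052 to 0.022 without single animals. The number of the 10 genes past the threshold at 200 mg/kg was 1 after quantile normalization and among features with the rounding of 8 or more, and 0 to 1 without single animals. Between doses it was 7 after quantile normalization, 5 among features with 1 symbol, 6 with the rounding of 8 or more, 5 with array weights and 3 to 5 without single animals. For the difference between days it was 1 without both vehicle replicates, and between vehicle days 0 with only the animals compared and 1 to 3 without single animals. At 2000 mg/kg it was 4 to 6 at day 8 and 7 to 8 at day 29 without single animals. Of all features 761 passed at 200 mg/kg, 340 with only the animals compared and 436 to 1102 without single animals. With the rounding of 8 or more, 3327 passed at 2000 mg/kg and day 8 and 3648 at day 29, against 5096 and 5910 of all, since fewer were tested. Between doses 2704 passed, and 1755 to 2813 without single animals. For the difference between days 212 passed, 102 after quantile normalization, 673 with array weights, 620 without both replicates and 76 to 563 without single animals. Between vehicle days 746 passed, 136 with only the animals compared, 1773 with array weights, 1374 without both replicates and 254 to 2141 without single animals. The cause was not tested. With the replicate number as a block, 59 of 60 values of the 10 genes kept their call, and Hpx at day 8 did not (adjusted p = 0.0518). An animal correlated best with the animal of its own number in 18 of 112 cases.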
